A study of Mus musculus with 4 samples.

Results

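The genes described here are 40 markers of macrophages and dendritic cells, read in RNA of CD4 cells from wild type (+/+) and sanroque (san/san) mice. They were a list of symbols chosen with earlier results of these data known. Each was read by the probe sets annotated to it alone. Of the 40 genes, 39 had such a probe set, 58 probe sets in all, among 12393 genes with a symbol of their own on the array. Siglech, a receptor of plasmacytoid dendritic cells, had none. For 36 of the 40 at least 1 probe set had a mean signal over the 4 arrays of 21.3 or more, the level under which probe sets were left out of the test, and these are called measured below. Itgam, Marco and Batf3 lay under it. Fcgr1 and Tlr4 passed through san/san alone, with +/+ means of 11.5 and 17.55.

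Sanroque is a recessive variant made in C57BL/6 males with the mutagen ENU, and the labels describe antinuclear autoantibodies in homozygous mice. Total RNA of CD4 cells was hybridised to 4 Affymetrix MOE430A arrays, 2 of +/+ and 2 of san/san mice, and no treatment is named for either genotype. Age and sex of the mice on the arrays, and whether the arrays of a genotype hold different mice, are not stated in the labels, so each p measures the spread between arrays, which may be technical. Number 1 arrays of both genotypes shared a hybridisation and scan day, and number 2 arrays another. The file headers call the RNA of both number 1 arrays sorted T cells, and carry the letters CBA for +/+ array 2 and SR for san/san array 2, which the labels do not explain. If CBA names a strain, strain and genotype cannot be told apart on that array.

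Macrophages and dendritic cells are the mononuclear phagocytes. They take up particles and antibody-coated antigen through surface receptors, kill and digest it with an oxidase and lysosomal proteases, and in the spleen and lymph nodes lie in close contact with CD4 T cells, to which dendritic cells present antigen. Their growth factor receptor Csf1r, their Fc receptors and the lineage factor PU.1, encoded by Spi1, are classical markers, but several genes of the list are also active in lymphocytes or in most cells. A CD4 T cell preparation should hold little RNA of phagocytes, so their markers serve as a reading of carried-over cells.

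The array signals were scaled before deposit, with trimmed means of 99.59 to 99.97, and their medians lay between 30.8 and 40.4, with the lowest on +/+ array 2. The T cell marker Cd4 read 533.3 and 613.5 on +/+ arrays 1 and 2 and 585.9 and 570.2 on san/san arrays 1 and 2. Cd3e, a chain of the T cell receptor complex, read 851.4 and 755.3 on the +/+ arrays and 849.2 and 833.1 on the san/san arrays. The genotypes overlapped for both, with log2 changes of 0.01 (standard error 0.171, adjusted p = 0.991) and 0.07 (standard error 0.17, adjusted p = 0.957). Another Cd4 probe set was lower on both san/san arrays, at -0.24 (adjusted p = 0.751). Of 7 measured CD4 T cell genes, only Cd4 and Cd3e had changes above 0, and the median was -0.07. Both san/san arrays lay below both +/+ arrays for 2 of the 7, Cd3g (-0.10) and Cd5 (-0.38), against 16.3% of all genes tested. Cd8a, which CD4 cells should lack, read 50.1 and 46.6 on the +/+ arrays and 68.3 and 54.5 on the san/san arrays (0.30, adjusted p = 0.789). Of 5 measured CD8 T or NK cell genes, 2 had changes above 0. Signals of different probe sets are given side by side, and are not amounts that can be compared between genes.

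**Figure D1:**
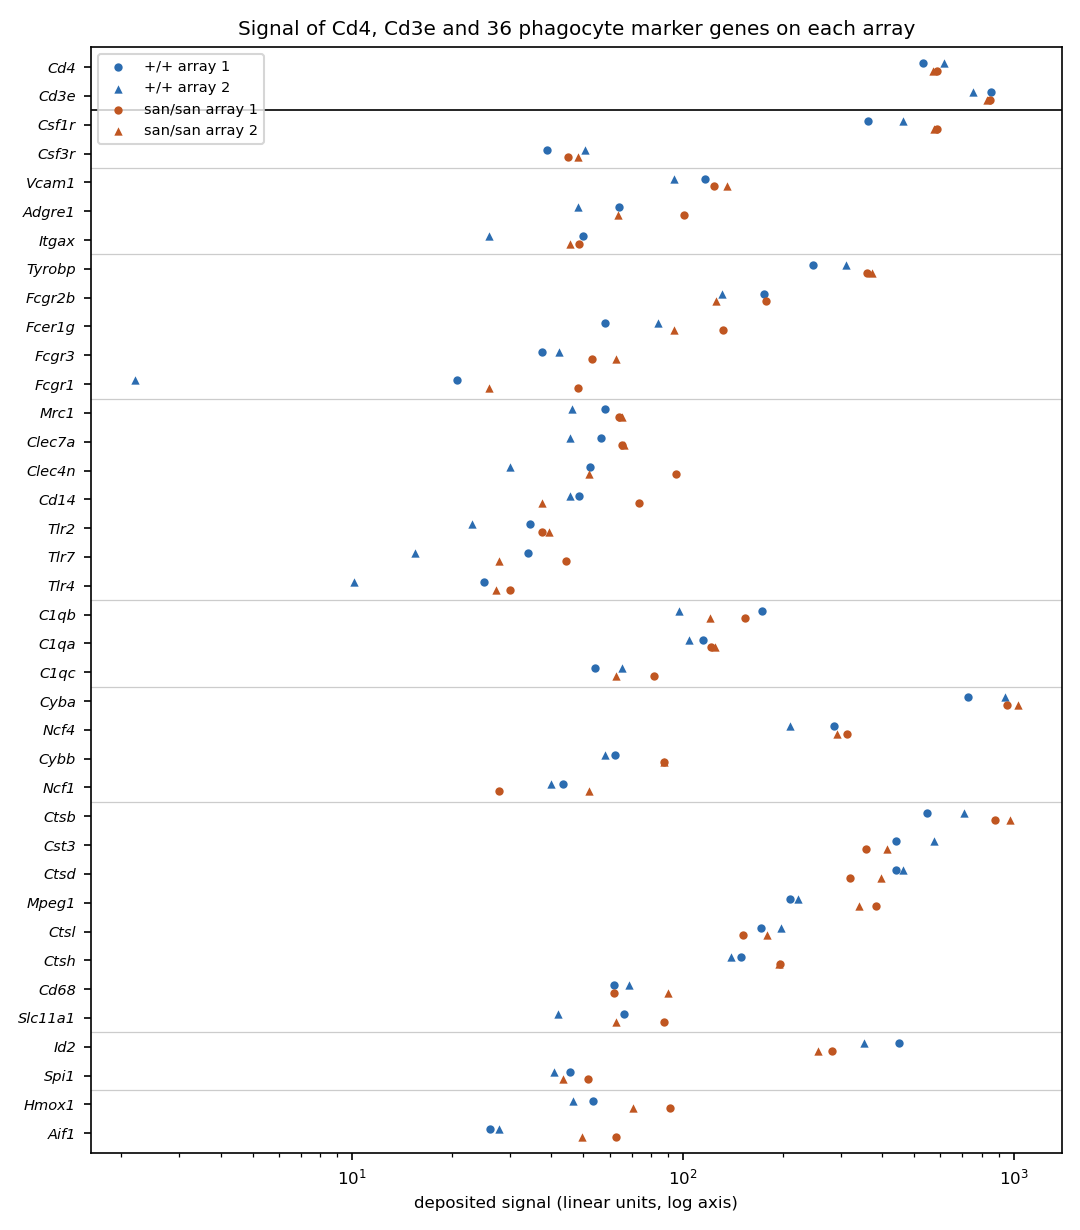
Deposited signal (horizontal log axis, linear units) of Cd4, Cd3e and 36 phagocyte marker genes (rows, grouped by role) on 4 arrays, 1 point per array, with +/+ arrays in blue and san/san arrays in orange. Points of Cd4 and Cd3e overlap between genotypes, while the orange points of Mpeg1, Aif1, Ctsb and Csf1r lie to the right of the blue ones and those of Id2, Cst3 and Ctsd to the left.

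Most phagocyte markers read higher in san/san than in +/+ CD4 cells, by small amounts. The log2 change was above 0 for 30 of the 36 measured genes, where 54.2% of all 7860 genes tested had a change above 0. The median change was 0.34, with 0.28 on day 1 and 0.41 on day 2, against 0.03 over all genes tested. Both san/san arrays lay above both +/+ arrays for 19 of the 36 genes, or 52.8%, and 22.3% of all genes did so. Both lay below for 3 genes, Cst3, Ctsd and Id2, or 8.33%, against 16.3% of all genes. Within both days the change was above 0 for 25 of the 36 genes, against 34.8% of all genes, and below 0 for 4, Cst3, Ctsd, Ctsl and Id2, against 27.4%. The list was chosen with earlier results of these data known, so these shares are a description and the list was not tested. In RNA of a whole cell preparation, more cells of a type and more RNA per cell cannot be told apart.

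No single phagocyte marker passed the test over the whole table. With limma and Benjamini-Hochberg adjustment over 13579 probe sets, 0 of the 36 genes had an adjusted p under 0.05, where 1.11% of all genes tested passed, 0.776% as higher and 0.331% as lower. At an unadjusted p under 0.05 there were 10 of the 36, against 9.59% of all genes. These were Ctsb, Csf1r, Mpeg1, Ctsh, Fcer1g, Cybb, Hmox1, Aif1 and Fcgr1, 9 genes higher in san/san against 6.16% of all genes, and Id2, which was lower. With the shared day as a block (the replicate block), 6 genes rose, Ctsb, Csf1r, Mpeg1, Clec4n, Aif1 and Fcgr1, and Id2 fell. These 7 genes are 19.4% of the 36, where 6.04% of all genes passed that fit, 3.92% higher and 2.12% lower. Counted by probe set, 8 of the members' 51 past the filter passed it, against 6.27% of all probe sets. Without Fcgr1 and Tlr4, whose +/+ means lie under the filter, 5 of 34 genes rose and Id2 fell in that fit, 28 of 34 were above 0 and the median change was 0.31. Leaving out each array in turn gave 0 calls each time. Without +/+ array 2 the median change was 0.183, with 28 of 36 genes above 0, against 0.422 without +/+ array 1.

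**Figure D2:**
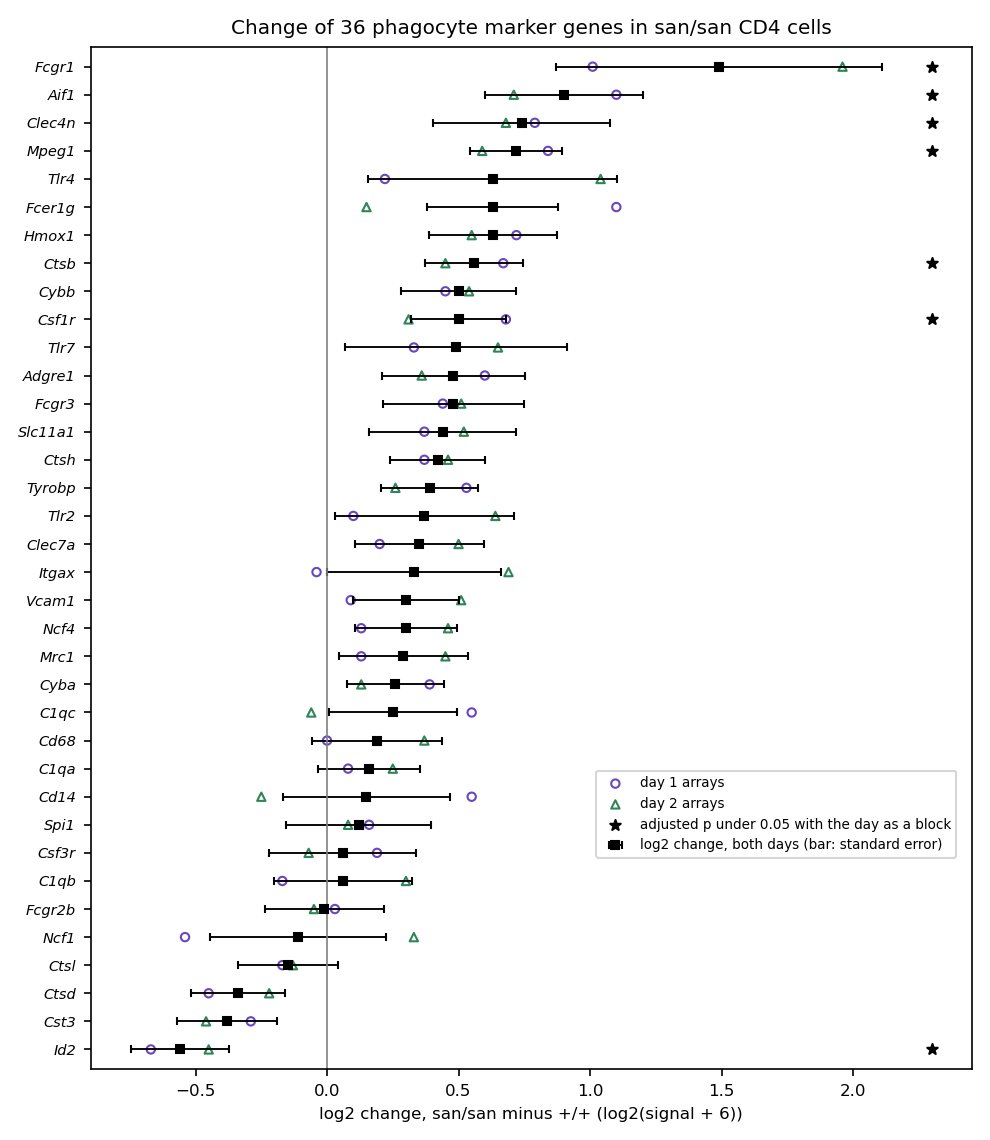
Log2 change of 36 phagocyte marker genes (rows), san/san minus +/+, as squares with the limma standard error, and the change within day 1 (circles) and day 2 (triangles). Stars mark 7 genes with an adjusted p under 0.05 with the day as a block. The changes ran from -0.56 for Id2 to 1.49 for Fcgr1, and 25 genes were above 0 on both days.

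**Figure D3:**
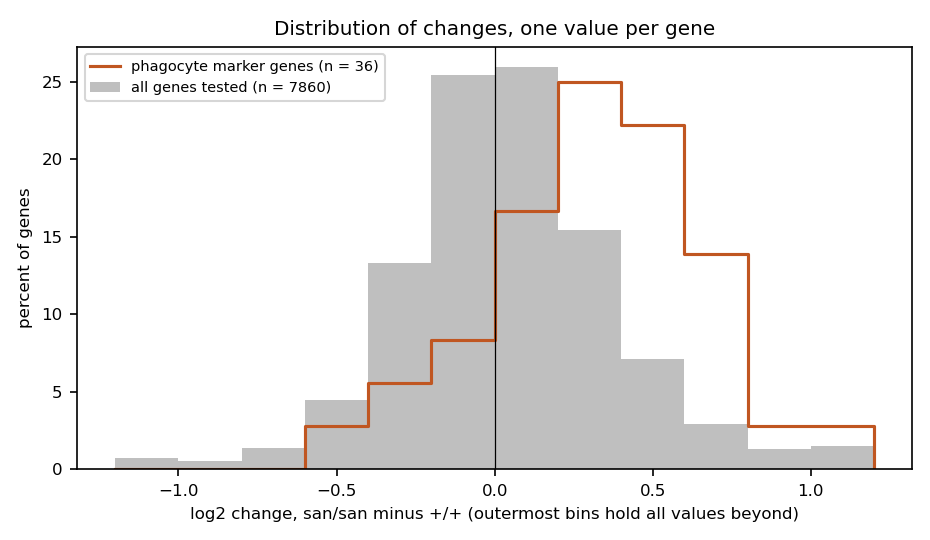
Percent of genes (vertical axis) in bins of log2 change, san/san minus +/+, for all 7860 genes tested (grey bars) and 36 phagocyte marker genes (orange line), 1 value per gene. The marker genes are centred at 0.34 and all genes at 0.03, and no marker gene lies below -0.6.

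Among the growth factor receptors, Csf1r, the receptor for the factor that keeps macrophages alive, read 363.2 and 461.4 on the +/+ arrays and 584.8 and 574.8 on the san/san arrays. The genotypes did not overlap, and the 2 san/san values lay closer together than the +/+ values. The log2 change was 0.50 ± 0.181 (standard error; adjusted p = 0.369, and 0.0389 with the day as a block), with 0.68 on day 1 and 0.31 on day 2, and 0.33 without +/+ array 1. A further 2 Csf1r probe sets had 0.05 and 0.18, so the size of the change differed between probe sets of the gene. Csf3r, the receptor for the neutrophil growth factor G-CSF, read 38.8 and 50.6 in +/+ and 45 and 48 in san/san, and the genotypes overlapped (0.06, adjusted p = 0.978).

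None of the 3 measured adhesion genes passed either fit by its brightest probe set. Adgre1, which encodes the macrophage surface antigen F4/80, read 64.2 and 48.3 on the +/+ arrays and 100.6 and 63.6 on the san/san arrays. The genotypes overlapped, although each san/san array lay above the +/+ array of its day (0.48, standard error 0.272, adjusted p = 0.634). Itgax, the integrin CD11c of dendritic cells, read 49.8 and 26 in +/+ and 48.4 and 45.7 in san/san, with +/+ array 2 alone low. Its change was 0.33, of which -0.04 on day 1 and 0.69 on day 2 (adjusted p = 0.854). Itgam, the integrin CD11b of macrophages and neutrophils, stayed between 8.9 and 18.8 on the 4 arrays, below the filter.

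Vcam1, an adhesion ligand for lymphocytes that splenic macrophages and stromal cells carry, had 3 measured probe sets. The brightest read 116.2 and 93.8 in +/+ and 124.2 and 136.3 in san/san, a change of 0.30 (adjusted p = 0.712). Another read 101.3 and 81.4 in +/+ and 133.3 and 150.7 in san/san, and its 0.61 passed with the day as a block (adjusted p = 0.0372, and 0.303 without). The third had 0.40, so all 3 were above 0.

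Fc receptors bind the constant part of antibodies. Fcer1g is an adaptor that carries the signal of activating Fc receptors into the cell, and Tyrobp is an adaptor of other surface receptors. Of these 5 genes, 4 were higher on both san/san arrays than on both +/+ arrays, where 22.3% of all genes tested were. The 4 include Fcgr1, which passed the filter through san/san alone. Fcgr1, the high-affinity receptor for IgG and a macrophage marker, read 20.8 and 2.2 in +/+ and 48 and 25.9 in san/san. Its +/+ array 2 value lay near the low end of the table, and san/san array 2 was only slightly above +/+ array 1. The change was 1.49 (standard error 0.62, adjusted p = 0.459, and 0.0207 with the day as a block), with 1.01 on day 1 and 1.96 on day 2. Fcgr1 was tested only because its san/san signal, 36.95 on average, lifted the mean over the filter, so its call is no support for a difference. The change was 0.63 without +/+ array 2 and 2.34 without +/+ array 1. It also moved with the constant added before the logarithm, to 2.12 with 1 and 0.81 with 24 in place of 6.

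Fcer1g read 58.3 and 84 in +/+ and 131.9 and 94.2 in san/san. The groups did not overlap, but the difference lay mostly on day 1, at 1.10 against 0.15 on day 2 (0.63 in all, standard error 0.249, adjusted p = 0.422). Tyrobp read 247 and 310.4 in +/+ and 359.3 and 372.6 in san/san (0.39, adjusted p = 0.516). The low-affinity receptor Fcgr3 read 37.5 and 42.1 in +/+ and 53 and 62.7 in san/san, with 0.44 on day 1 and 0.51 on day 2 (adjusted p = 0.627). Fcgr2b, the inhibitory Fc receptor that B cells carry too, was level, at 175.2 and 130.9 in +/+ and 178.8 and 126.1 in san/san. Its 4 probe sets had changes of -0.24 to 0.38, 2 of them above 0.

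Of the receptors for microbial and altered self molecules, 7 were measured and had changes above 0, with a median of 0.37. With the day as a block 1 of the 7 passed, as higher, against 3.92% of all genes tested. That gene was Clec4n, which encodes Dectin-2, a lectin that binds fungal sugars. It read 52.4 and 30.1 in +/+ and 95.3 and 51.9 in san/san, so that san/san array 2 lay just under +/+ array 1 while the change was alike on both days, 0.79 and 0.68. Over both days it was 0.74 (standard error 0.337, adjusted p = 0.51, and 0.0424 with the day as a block). Leaving out 1 array moved it to 0.33 without san/san array 1, 0.39 without +/+ array 2, 1.09 without +/+ array 1 and 1.14 without san/san array 2. Clec7a, the beta-glucan receptor Dectin-1, read 56.4 and 45.4 in +/+ and 65.5 and 66.5 in san/san (0.35, adjusted p = 0.735).

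The mannose receptor gene Mrc1 read 58.1 and 46.2 in +/+ and 64.1 and 65.4 in san/san (0.29, adjusted p = 0.796). Cd14, a co-receptor for bacterial lipopolysaccharide, went opposite ways on the 2 days, with 0.55 and -0.25, from 48.6 and 45.7 in +/+ and 73.7 and 37.4 in san/san. Of the Toll-like receptors, which sense microbial molecules, Tlr2 had 0.37, Tlr4 0.63 and Tlr7 0.49, with adjusted p of 0.825, 0.756 and 0.807. Below the filter, another Tlr4 probe set had -0.01, and other Tlr7 probe sets had 0.23 and -1.14. For Tlr4 the signals were 25 and 10.1 in +/+ and 30.1 and 27.2 in san/san, and +/+ array 2 was the low one. The same array was lowest for Tlr2, at 23.1, and for Tlr7, at 15.5. Marco, a scavenger receptor of marginal zone macrophages, read 1.1 to 5 on the 4 arrays, with a change of -0.10 below the filter.

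The genes of complement C1q, whose 3 chains are made together by tissue macrophages, had a median change of 0.16 and no call in either fit. C1qa read 115.2 and 104.2 in +/+ and 121.7 and 124.8 in san/san, a change of 0.16 (standard error 0.193, adjusted p = 0.884). C1qb by its brightest probe set read 173.3 and 97.4 in +/+ and 153.6 and 121 in san/san (0.06, adjusted p = 0.977), and its 3 probe sets lay between 0.06 and 0.23. By that probe set the number 1 array lay above the number 2 array in each genotype. C1qc read 54.1 and 65.5 in +/+ and 82 and 62.8 in san/san (0.25, adjusted p = 0.847), higher on day 1 alone.

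The phagocyte oxidase makes superoxide in the phagosome, from the membrane subunits Cybb and Cyba and cytosolic subunits that include Ncf1 and Ncf4. Cybb read 62.3 and 58.3 in +/+ and 87.4 and 87.8 in san/san, with little spread within either genotype (0.50, standard error 0.217, adjusted p = 0.481). Cyba, which most white cells express, read 725.4 and 941 in +/+ and 951.9 and 1029.1 in san/san (0.26, adjusted p = 0.743). Ncf4 read 286.3 and 210.7 in +/+ and 314 and 292.1 in san/san (0.30, adjusted p = 0.705). None of these 3 genes overlapped between genotypes, all being higher in san/san, as were 22.3% of all genes tested. Ncf1 had 2 probe sets with opposite signs, -0.11 and 0.30.

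Among 8 lysosomal and endosomal genes, Mpeg1 and Ctsb rose with the day as a block, where 3.92% of all genes did, and 3 genes were below 0. Mpeg1, which encodes the pore-forming protein perforin-2 of macrophages, read 210.8 and 223.4 in +/+ and 382.6 and 339.7 in san/san. Its values within a genotype were close, and the genotypes were well apart. The change was 0.72 (standard error 0.175, adjusted p = 0.105, and 0.00268 with the day as a block), with 0.84 on day 1 and 0.59 on day 2. With 1 value per gene, taken as the mean of its probe sets, Mpeg1 passed without the block too (adjusted p = 0.0436); it has a single probe set, so its signals were the same, while the table fitted was another and the standard error 0.156.

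Ctsb, the lysosomal cysteine protease cathepsin B, read 548.4 and 707.3 in +/+ and 876.8 and 971.1 in san/san by its brightest probe set. The change was 0.56 (standard error 0.186, adjusted p = 0.294, and 0.0115 with the day as a block), and its 4 probe sets all lay above 0, from 0.34 to 0.67. Ctsh, cathepsin H, read 150.3 and 140.1 in +/+ and 196.1 and 195.5 in san/san (0.42, adjusted p = 0.481). Slc11a1, a metal ion transporter of phagosomes, had 0.44 (adjusted p = 0.685), and Cd68, a lysosomal membrane protein of macrophages, 0.19 (adjusted p = 0.897), from 61.8 and 68.5 in +/+ and 61.9 and 90.3 in san/san.

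The aspartic protease gene Ctsd read 441.2 and 463.7 in +/+ and 320.6 and 395.9 in san/san, lower on both days (-0.34, standard error 0.179, adjusted p = 0.603). Cst3, which encodes the cathepsin inhibitor cystatin C and is abundant in dendritic cells, read 440.1 and 573.6 in +/+ and 358.8 and 414.4 in san/san (-0.38, standard error 0.19, adjusted p = 0.574). The genotypes did not overlap for either gene. Ctsl, cathepsin L, had -0.15 with overlapping genotypes (adjusted p = 0.887).

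The transcription regulators went both ways. Spi1, the lineage factor of phagocytes and B cells, read 45.4 and 40.7 in +/+ and 51.5 and 43.3 in san/san (0.12, standard error 0.275, adjusted p = 0.95). Id2, an inhibitor of E proteins needed for dendritic cells and also active in T cells, read 451.3 and 352.5 in +/+ and 282.2 and 255.7 in san/san. Its change was -0.56 (standard error 0.187, adjusted p = 0.301, and 0.0195 with the day as a block), with -0.67 on day 1 and -0.45 on day 2, and its other probe sets had -0.23 and -0.66. Batf3, a factor of cross-presenting dendritic cells, read 15.7 and 16 in +/+ and 11 and 4.5 in san/san, below the filter.

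Of the remaining members, Aif1, a calcium-binding protein of macrophages, read 26.1 and 27.8 in +/+ and 62.6 and 49.4 in san/san. That was a change of 0.90 (standard error 0.301, adjusted p = 0.299, and 0.0326 with the day as a block), with 1.10 on day 1 and 0.71 on day 2. Hmox1, the haem-degrading enzyme of macrophages that clear red cells, read 53.3 and 46.5 in +/+ and 91.6 and 70.6 in san/san (0.63, standard error 0.243, adjusted p = 0.401, and 0.0651 with the day as a block). For both genes the genotypes did not overlap.

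The promoter letters of members that passed with the day as a block are shown because the phagocyte factor PU.1, the product of Spi1, binds sites with the core GAGGAA. RefSeq promoters (GRCm38.p6) were at hand for 26 of the 40 genes, and for Fcgr1, Aif1, Mpeg1 and Id2 among these 7. The 250 bases before the start are printed on the gene's strand, with GAGGAA or its reverse complement TTCCTC in capitals. They lie at chr3:96293970-96294219, chr17:35176053-35176302, chr19:12460520-12460769 and chr12:25096093-25096342, Mpeg1 on the plus strand and the others on the minus strand.
Fcgr1: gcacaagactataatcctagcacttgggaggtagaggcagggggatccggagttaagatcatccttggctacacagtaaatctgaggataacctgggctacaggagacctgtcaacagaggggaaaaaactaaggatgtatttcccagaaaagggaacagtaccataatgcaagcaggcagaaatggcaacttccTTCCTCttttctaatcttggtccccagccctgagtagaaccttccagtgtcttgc
Aif1: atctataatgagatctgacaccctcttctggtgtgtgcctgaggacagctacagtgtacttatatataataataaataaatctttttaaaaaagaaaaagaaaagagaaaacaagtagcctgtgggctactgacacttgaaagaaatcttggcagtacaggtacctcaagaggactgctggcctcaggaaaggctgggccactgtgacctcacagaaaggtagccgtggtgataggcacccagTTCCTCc
Mpeg1: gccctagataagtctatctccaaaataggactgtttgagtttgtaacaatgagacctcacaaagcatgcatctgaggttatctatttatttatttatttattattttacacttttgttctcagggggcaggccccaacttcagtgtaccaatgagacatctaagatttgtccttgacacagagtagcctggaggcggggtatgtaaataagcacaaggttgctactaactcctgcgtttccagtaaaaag
Id2: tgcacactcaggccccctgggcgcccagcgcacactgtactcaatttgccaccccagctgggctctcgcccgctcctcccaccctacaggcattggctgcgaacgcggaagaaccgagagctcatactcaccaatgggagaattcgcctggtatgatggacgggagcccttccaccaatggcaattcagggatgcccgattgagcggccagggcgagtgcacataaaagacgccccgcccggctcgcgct

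The letters stand on the opposite strand in Fcgr1, 55 bases before the start, and in Aif1, 7 bases before it. Mpeg1 and Id2 do not hold them in this window. Counted on either strand, 14 of the 26 members with a promoter held GAGGAA, or 53.8%, against 25.9% of 27025 genes with a promoter in the same table. This is a description of letters in a window and not of binding.

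The members were also split by a list of genes known from other cells, which is not complete. A list of 15 members also known from lymphocytes or many other cells, Cyba, Ctsb, Ctsd, Ctsl, Cst3 and Id2 among them, had 9 genes above 0 and a median change of 0.26. All 6 measured members below 0 were on it. A place off that list does not show that lymphocytes lack a gene. Of the other 25 members 21 were measured, all above 0 with a median of 0.39, while Batf3 (-0.71) and Marco (-0.10), under the filter, were below 0. Of these 21 genes 12 were higher on both san/san arrays without overlap, where 22.3% of all genes tested were. The fit with the block called 5 as higher, against 3.92% of all genes. Fcgr1 and Tlr4, which passed the filter through san/san alone, are among the 12, and Fcgr1 is among the 5. The summed signal of the 21 genes was 1866.4 and 1828.7 on +/+ arrays 1 and 2 and 2644.7 and 2419.4 on san/san arrays 1 and 2, 1.37 times as high in san/san by the means. For all 36 genes the ratio was 1.17. Bright probe sets weigh most in such sums. The brightest of the 21 were those of Csf1r, Tyrobp and Mpeg1, and other Csf1r probe sets had changes of 0.05 and 0.18. The split into these lists was made with earlier results known and is not tested.

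The 36 members spread more between the +/+ arrays than between the san/san arrays, with a median absolute log2 difference of 0.33 against 0.21, where all genes had 0.24 in both genotypes. The +/+ array 2 read lower than array 1 for 22 of 36 members, and 56.0% of all genes did so. With each array centred on Cd4 and Cd3e, the members' median change was 0.295, and 30 of 36 stayed above 0. Those were the 2 of 7 measured CD4 T cell genes with changes above 0, so other T cell genes were not used for this centring.

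Other mononuclear phagocyte genes that are not members were mostly higher in san/san. They were also listed with earlier results of these data known, so their counts are a description and no separate check of the members. Of 65 such genes 43 were measured, with 38 above 0, against 54.2% of all genes tested, and a median change of 0.35. Without overlap 26 were higher, against 22.3% of all genes, and 2 lower, Cebpb (-0.44) and Cd209a (-0.22), against 16.3%. The 26 include Cd5l and Mertk, whose +/+ means lie under the filter. By limma 5 of them rose and none fell, Lyz1, Lyz2, Cd5l, Lgals3 and Alox5ap, where 0.776% of all genes rose. The fit with the day as a block called 12, all higher, against 3.92% of all genes. The lysozyme genes Lyz1 and Lyz2, which neutrophils also express, had 1.71 and 1.61 (adjusted p = 0.00105 and 0.000797), and as near-identical copies they may share signal. Cd5l, a protein secreted by tissue macrophages, had 1.69 (adjusted p = 0.0324, and 0.25 without san/san array 2). Its +/+ signals, 19.9 and 17.2, lay under the filter, so Cd5l was tested only through its san/san signals. It is in both counts of calls and lends them no support. Lgals3, which activated T cells also express, had 1.11 (adjusted p = 0.0434). It did not pass without +/+ array 2 (0.0561) or san/san array 2 (0.246), nor centred on Cd4 and Cd3e (0.0574). Alox5ap, which leukotriene synthesis needs, had 1.11 (adjusted p = 0.034) and passed without +/+ array 1, but not without +/+ array 2 (0.104) or san/san array 1 (0.105) or 2 (0.0881). Cd5l, Lgals3 and Alox5ap also missed the threshold with no filter (adjusted p = 0.188, 0.165 and 0.134) and with no variance trend (0.0777, 0.209 and 0.201), as did Lyz1 with no variance trend (0.0507). Under quantile normalization Cd5l (0.0557) and Lgals3 (0.0712) missed it, and Lgals3 with median centring (0.0708).

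Markers of further cell types moved beside the phagocyte markers. The summed signal of 9 measured neutrophil genes was 577.2 and 560.1 in +/+ and 1411.7 and 1467.3 in san/san, 2.53 times as high. By limma 3 of the 9 rose, Ngp, S100a8 and S100a9, against 0.776% of all genes. That list holds Csf3r, and Camp, Lcn2 and Mmp9, which passed the filter through san/san alone. For 2 red cell genes, Alas2 and Slc4a1, the sums were 765.4 and 765 in +/+ and 1139.8 and 1273.6 in san/san. Both passed, as higher, with the block, where 3.92% of all genes did. Neither passed by limma without the block (adjusted p = 0.152 and 0.142). The sum over 6 B cell genes was lower, 1080.3 and 1102.2 in +/+ against 926.3 and 989.8 in san/san. Over 4 MHC class II genes, which dendritic cells, macrophages and B cells express, the sums overlapped, at 3833.6 and 4262.1 in +/+ and 3493.9 and 4114.8 in san/san. Of a list of 11 macrophage markers, all of them members, 9 were measured, all above 0, with a median change of 0.25 and a ratio of summed signals of 1.29. Fcgr1 among these passed the filter through san/san alone. The remaining ones, Marco (-0.10) and Itgam (0.39), lay under it. Bright probe sets weigh most in the ratio, and the brightest was that of Csf1r, with means of 412.3 in +/+ and 579.8 in san/san. Other Csf1r probe sets had changes of 0.05 and 0.18. Of 8 dendritic cell markers 2 were measured, Itgax and Cd209a. They had sums of 133.6 and 98.1 in +/+ and 115.9 and 109.9 in san/san, which overlap. The part of other cells in the members' changes was not tested.

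**Figure D4:**
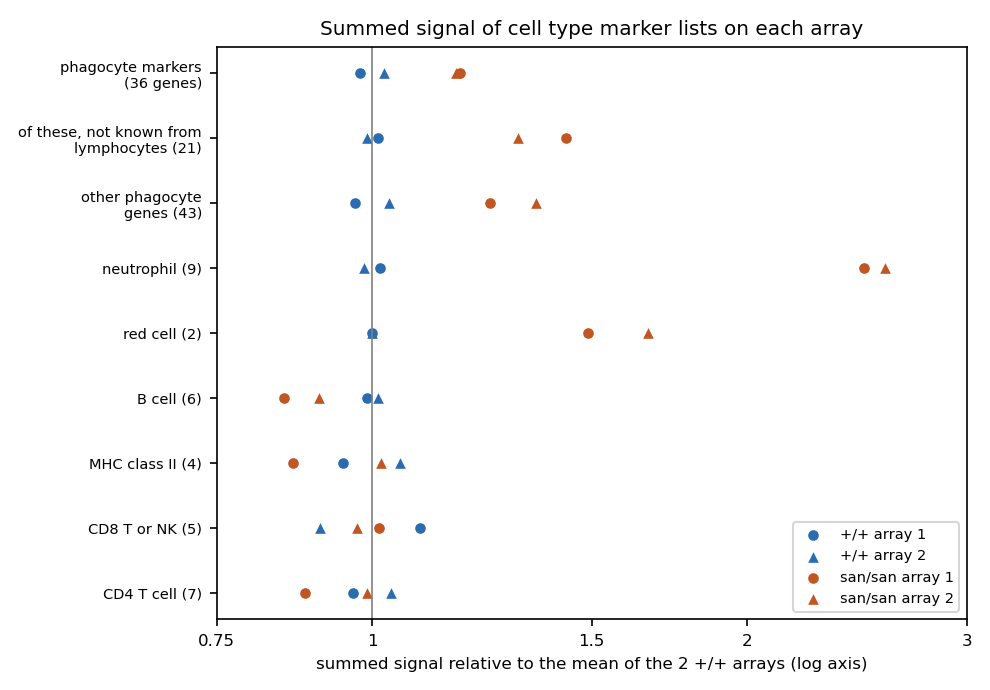
Summed signal of marker lists (rows, with the number of measured genes) on each array, relative to the mean of the 2 +/+ arrays, on a log axis. Both san/san arrays lie right of both +/+ arrays for the phagocyte, neutrophil and red cell lists and left of them for B cells, while the MHC class II, CD8 T or NK and CD4 T cell lists overlap. The row marked as not known from lymphocytes holds members left off an incomplete list, and lymphocytes may express some of them.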

How the data were processed

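Each of the 22690 probe sets has 1 linear intensity per array in the deposited table, scaled by the authors before deposit to a common trimmed mean, as the values show. The chip type is MOE430A per the file headers, and the summary method is not given in the sources used here. Symbols came from the platform annotation. Signals were analysed as log2(signal + 6), which understates changes of dim genes. Left out were 64 control probe sets and any whose 4-array mean fell under the 40th percentile, 21.3, so that 13579 were tested. The genotypes were compared with limma 3.58.1 (R 4.3.3, lmFit and eBayes with a variance trend, two-sided), with no covariate, and p-values were adjusted by Benjamini-Hochberg over all probe sets tested. The brightest tested probe set stood for its gene. The steps were tested on simulated data.

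Replicate numbers pair the arrays, because number 1 arrays shared a hybridisation day and number 2 arrays another per the file headers. Deviations from the genotype mean correlated with 0.392 across probe sets between same-numbered arrays. The fit with the day as a block is the paired alternative. With genotype and day both fitted to so few arrays, each probe set keeps little spread of its own. Its p-values therefore lean on the variance pooled over probe sets. The members and lists were chosen with earlier results of these data known. Array values are given for members that passed either fit, did not overlap with a change of 0.5 or more, or are defining markers, and for further members as examples. Alternatives were quantile normalization, centring on the median or on Cd4 and Cd3e, a pseudocount of 1 or 24, no filter, a filter at the 60th percentile, a constant prior variance, the block, each array left out, and other ways to represent a gene by its probe sets. Plots were made in Python 3.11.15 (matplotlib 3.10.9).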

Additional observations from a re-analysis of the deposited data

How the results depend on the processing

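The count of 0 called members held under quantile normalization, both centrings, both pseudocounts, no filter (39 genes), the filter at the 60th percentile (22 genes), no variance trend, probe sets with a plain _at name alone (28 genes) and each array left out. It was 7 with the replicate block and 1, Mpeg1, with all probe sets of a gene averaged (the cause was not tested). It was also 0 among 34 members whose mean passed the filter in both genotypes, a setting chosen after seeing the data, with a median change of 0.315. The median change of the members was above 0 under every alternative run, from 0.246 with median centring to 0.376 with a pseudocount of 1. Leaving out 1 array gave 0.183 (without +/+ array 2) to 0.422 (without +/+ array 1), and the cause was not tested. With median centring, which moved the median of all genes from 0.031 to -0.059, 28 of 36 members were above 0. Of all probe sets tested, 144 passed the test, against 852 with the block, 56 with no filter, 47 with no variance trend and 356 without +/+ array 1. Signs of Csf3r, C1qb, Ncf1, Fcgr2b, Itgax, Cd14 and Cd68, with none of them called, differed under at least 1 alternative. With 2 arrays per genotype and dim signals for many members, a p that misses the threshold does not show that a gene was level.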
